A study of Mus musculus with 28 samples.

Results

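The regions described here are those acetylated on histone H3 at lysine 27 (H3K27ac), at lysine 9 (H3K9ac) or at both in mouse lung adenocarcinoma cells that are resistant to PD-1 blockade and carry a short hairpin against Fabp7. PD-1 is an inhibitory receptor of T cells, and Fabp7 encodes a fatty acid binding protein. The knockdown group is labelled Res_shFabp7 and has 3 libraries of each mark. Peaks of these 6 libraries that overlapped by at least 1 base were merged into 29902 regions. A region had both marks where all 6 libraries had a peak, H3K27ac only where 3 of 3 libraries of that mark and 0 of 3 of the other had one, and H3K9ac only in the reverse case. These 3 classes took 18532 of the 29902 regions, and the whole series gave 32926 merged regions from 24 peak lists.

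The other groups of the series were wild-type cells sensitive to PD-1 blockade (Sen), wild-type resistant cells that the labels describe as given PD-1 inhibitors (Res) and resistant cells labelled as the control of the knockdown (Res_Ctrl), each with 3 libraries per mark. The labels give the resistant line as the parent of Res_shFabp7 and Res_Ctrl, do not name such treatment for them, and do not give the number of hairpins or clones. All cells grew in RPMI-1640 medium with serum and were fixed for 10 minutes in 1% formaldehyde, and each sample gave 53 M to 158 M single reads of 50 bases (M stands for 1000000). The labels call the replicates biological. Histone marks do not measure the Fabp7 transcript that the hairpin targets, so the knockdown itself was not checked here.

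Acetylation removes the positive charge of a lysine in the histone tail and is read by bromodomain proteins of the transcription machinery. H3K27ac, written mainly by the acetyltransferases Ep300 and Crebbp, marks active promoters and active enhancers. H3K9ac, written mainly by Kat2a and Kat2b, is known best from the nucleosomes beside active promoters, many of which lie in CpG islands, stretches of DNA that keep the CG pairs lost elsewhere in the genome.

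Promoter sequences of genes from each class are shown because the number of CG pairs in promoters differed between the classes. They are the 250 bases before the annotated start, 5′ to 3′ on the gene's strand, from the RefSeq promoter table of GRCm38.p6 (mm10), and capitals mark CG pairs. Within each class the genes were the first by rank whose region held a listed start, leaving out 1 chromosome that was not used for starts or sequences. The first pair had both marks with the higher H3K9ac share: Notch1 (chr2:26503823-26504072, minus strand), a receptor of cell-to-cell signalling, with 16 CG pairs, and Bcorl1 (chrX:48341108-48341357, plus strand), a transcriptional corepressor, with 18.
Notch1: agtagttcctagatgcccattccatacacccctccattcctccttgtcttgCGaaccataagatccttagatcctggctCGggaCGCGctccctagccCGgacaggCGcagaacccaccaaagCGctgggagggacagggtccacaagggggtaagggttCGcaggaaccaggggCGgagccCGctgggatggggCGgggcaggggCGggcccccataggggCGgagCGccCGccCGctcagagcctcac
Bcorl1: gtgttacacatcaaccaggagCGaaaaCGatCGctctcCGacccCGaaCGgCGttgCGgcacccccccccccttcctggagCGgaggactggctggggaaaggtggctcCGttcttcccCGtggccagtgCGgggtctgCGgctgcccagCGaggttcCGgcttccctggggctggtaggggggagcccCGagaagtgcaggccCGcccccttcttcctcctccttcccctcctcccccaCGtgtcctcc
The next 3 had H3K9ac only: Ccpg1 (chr9:72985254-72985503, plus strand), with 23 CG pairs, Psrc1 (chr3:108383554-108383803, plus strand), a spindle protein, with 18, and P2ry1 (chr3:61002535-61002784, plus strand), a receptor for ADP, with 20.
Ccpg1: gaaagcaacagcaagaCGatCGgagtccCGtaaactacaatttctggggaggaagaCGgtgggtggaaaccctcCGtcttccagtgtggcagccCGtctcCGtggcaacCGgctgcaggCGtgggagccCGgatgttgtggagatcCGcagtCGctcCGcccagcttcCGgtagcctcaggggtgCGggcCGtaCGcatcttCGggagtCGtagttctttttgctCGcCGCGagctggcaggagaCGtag
Psrc1: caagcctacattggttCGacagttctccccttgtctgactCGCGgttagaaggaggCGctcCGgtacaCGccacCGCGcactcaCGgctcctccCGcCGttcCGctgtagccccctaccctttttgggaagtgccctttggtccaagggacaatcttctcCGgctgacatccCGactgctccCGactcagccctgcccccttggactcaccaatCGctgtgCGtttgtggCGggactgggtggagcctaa
P2ry1: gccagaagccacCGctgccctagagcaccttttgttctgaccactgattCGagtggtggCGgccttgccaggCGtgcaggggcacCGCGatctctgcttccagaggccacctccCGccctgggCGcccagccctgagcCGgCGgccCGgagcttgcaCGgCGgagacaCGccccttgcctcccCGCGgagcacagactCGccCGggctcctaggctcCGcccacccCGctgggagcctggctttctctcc
C77080 (chr4:129261405-129261654, minus strand), with no CG pair, and Pilrb1 (chr5:137858050-137858299, minus strand), with 1, had both marks with the higher H3K27ac share. The last 3 had H3K27ac only: Tm4sf4 (chr3:57425160-57425409, plus strand), a tetraspanin-like membrane protein, with 3 CG pairs, Hsh2d (chr8:72189418-72189667, plus strand), an SH2 domain protein, with 5, and Sprr1b (chr3:92438780-92439029, minus strand), a protein of the cornified envelope of squamous cells, with 1.
C77080: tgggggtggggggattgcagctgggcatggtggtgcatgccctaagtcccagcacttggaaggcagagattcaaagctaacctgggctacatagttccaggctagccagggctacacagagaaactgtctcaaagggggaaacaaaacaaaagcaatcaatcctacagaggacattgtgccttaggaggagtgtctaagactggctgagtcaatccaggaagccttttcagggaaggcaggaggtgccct
Pilrb1: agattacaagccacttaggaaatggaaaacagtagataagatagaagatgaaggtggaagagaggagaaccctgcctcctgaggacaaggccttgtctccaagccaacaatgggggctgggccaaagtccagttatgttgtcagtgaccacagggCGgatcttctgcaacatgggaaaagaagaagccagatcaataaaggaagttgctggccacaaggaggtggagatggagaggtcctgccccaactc
Tm4sf4: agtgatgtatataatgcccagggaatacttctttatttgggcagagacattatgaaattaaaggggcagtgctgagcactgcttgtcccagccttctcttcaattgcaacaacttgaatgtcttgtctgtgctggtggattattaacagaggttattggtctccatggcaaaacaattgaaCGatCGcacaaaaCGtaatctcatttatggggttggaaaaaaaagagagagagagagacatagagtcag
Hsh2d: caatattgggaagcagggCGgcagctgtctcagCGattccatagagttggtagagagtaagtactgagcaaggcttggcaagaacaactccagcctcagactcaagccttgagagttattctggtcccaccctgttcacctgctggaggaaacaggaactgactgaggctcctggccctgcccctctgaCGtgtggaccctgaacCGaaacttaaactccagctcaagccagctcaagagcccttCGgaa
Sprr1b: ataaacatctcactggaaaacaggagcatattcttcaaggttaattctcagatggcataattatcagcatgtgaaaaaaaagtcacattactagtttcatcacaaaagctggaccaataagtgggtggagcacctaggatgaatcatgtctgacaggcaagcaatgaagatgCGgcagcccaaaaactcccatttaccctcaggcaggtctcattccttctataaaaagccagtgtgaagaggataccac
Among these 10 sequences only that of Sprr1b holds TATAAA and only that of C77080 holds TGACTCA or TGAGTCA, a binding motif of AP-1 factors, on either strand.

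The H3K27ac lists of the knockdown cells were longer and reached further from genes than the H3K9ac lists. The 3 H3K27ac libraries held 23131, 27107 and 28934 peaks, and the 3 H3K9ac libraries 16529, 18317 and 17610. All H3K27ac lists were longer than all H3K9ac lists (26391 ± 2967 against 17485 ± 900, SD, n = 3; two-sided exact permutation p = 0.1, the smallest that 3 against 3 allows). Peaks within 1 kb of either end of a protein-coding gene made up 41.6%, 36.8% and 35.1% of the H3K27ac lists and 56.7%, 52.4% and 54.0% of the H3K9ac lists. The marks did not overlap here either, with means of 37.8 ± 3.36% and 54.4 ± 2.16% (exact permutation p = 0.1). That gap of 16.6 percentage points was 6.58 points when each library was held to its 16529 best-scored peaks.

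Widths and tags of single peaks overlapped between the marks. Median widths were 2295, 2373 and 2483 bases in H3K27ac and 2270, 2428 and 2273 bases in H3K9ac, which overlapped (exact permutation p = 0.5), whereas with equal numbers of peaks the mean of the H3K27ac medians was 627 bases higher. NumTags, the deposited number of reads in a peak, had medians of 163, 179 and 236 in H3K27ac and 222, 287 and 243 in H3K9ac, which overlapped as well (exact permutation p = 0.2). Tags in peaks summed to 5.10 M, 7.17 M and 10.5 M in H3K27ac and 4.84 M, 7.19 M and 5.86 M in H3K9ac, so the third H3K27ac library stood above the others. These sums grow with the length called and are not sequencing depth, which the lists do not hold per library.

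**Figure D1:**
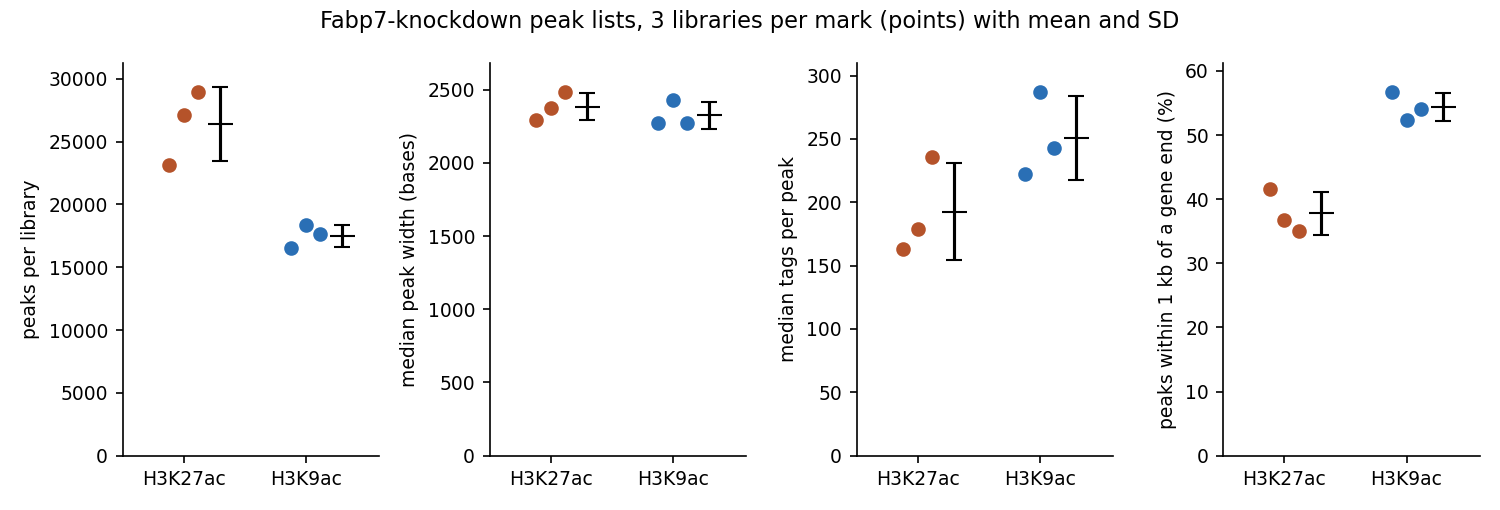
Number of peaks, median peak width in bases, median tags per peak, and percent of peaks within 1 kb of a gene end, for the 3 libraries (points) of each mark in Res_shFabp7 cells, with the mean and SD beside them. The marks are apart in number (16529 to 18317 in H3K9ac against 23131 to 28934 in H3K27ac) and in the share at gene ends, and overlap in width and in tags.

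Nearly all H3K9ac of the knockdown cells lay on H3K27ac, and the reverse did not hold. Both marks in all 6 libraries were found at 14524 regions (48.6% of 29902), H3K27ac only at 3949 (13.2%) and H3K9ac only at 59 (0.197%). A further 3039 regions (10.2%) had both marks in some of the libraries, 8095 (27.1%) had H3K27ac in 1 or 2 libraries alone, and 236 had H3K9ac in 1 or 2 alone. Regions with both marks held 97.4 ± 1.19% (SD, n = 3) of all H3K9ac tags in peaks and 80.8 ± 4.18% of all H3K27ac tags. Regions with H3K27ac only held 7.84 ± 0.354% of the H3K27ac tags. For bases, 94.5 ± 1.71% of the H3K9ac length lay inside H3K27ac peaks of the library with the same number, and 57.5 ± 7.61% of the H3K27ac length inside H3K9ac peaks.

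The sizes of the single-mark classes depended on the length of the lists. With 16529 peaks from each library, 12266 regions had both marks, 1032 had H3K27ac only and 1141 had H3K9ac only, so the class with H3K9ac only reached the size of the other. Their places moved little: in that setting 62.9% of regions with both marks, 5.52% of those with H3K27ac only and 69.8% of those with H3K9ac only lay at gene ends. Without the first H3K27ac library the H3K27ac-only class had 7726 regions, and without the third H3K27ac or the first H3K9ac library the H3K9ac-only class had 114 and 123 regions.

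Regions with both marks were the widest and the most strongly marked, and those with H3K27ac only lay furthest from genes. Their median width was 3378 bases, against 2589 for H3K27ac only and 1428 for H3K9ac only, and both marks were found at 2.32% of regions up to 1500 bases wide and at 96.8% of those over 8000. Of the regions with both marks, 62.4% lay within 1 kb of a gene end and 25.3% over 10 kb away. For H3K27ac only the order was turned, with 6.03% at gene ends, 72.1% over 10 kb away and a median gap of 25709 bases. Of the 59 regions with H3K9ac only, 43 (72.9%) were at gene ends and 11 were over 10 kb away. With the chromosome not used for starts left out, a start listed in the promoter table lay inside 53.9% of the regions with both marks, 1.30% of those with H3K27ac only and 64.9% of those with H3K9ac only.

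Single-mark regions were weak in the mark they had. The median H3K27ac tags of a region were 229, 291 and 415 in the 3 libraries where both marks were present, and 82, 129 and 191 where H3K27ac stood alone. The median H3K9ac tags were 252, 366 and 302 with both marks and 63, 86 and 68 with H3K9ac only. In each library the class with both marks was the higher, also per called length, where H3K27ac reached 100 ± 23.6 tags per kb with both marks and 62.1 ± 12.7 alone. H3K27ac tags rose step by step with the number of H3K9ac libraries that had a peak: medians in the third library were 191 with 0 of 3 (3949 regions), 253 with 1 of 3 (1210), 299.5 with 2 of 3 (1098) and 415 with 3 of 3 (14524).

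At equal H3K27ac, a region near a gene end was more often called for H3K9ac than a distant one. Regions with H3K27ac in 3 of 3 libraries were split into 4 groups of equal size by their H3K27ac tags, scaled to 1000000 tags in peaks. In the lowest group, an H3K9ac peak was present in 3 of 3 libraries at 86.4% of 1563 regions within 1 kb of a gene end, 26.1% of 1094 regions at 1 to 10 kb and 14.1% of 2539 regions over 10 kb away. In the highest group the shares were 99.6%, 94.9% and 91.9%, so most of the strongest distal regions also had H3K9ac. These shares describe regions of 6 libraries and carry no test, since regions of a library are not replicates.

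**Figure D2:**
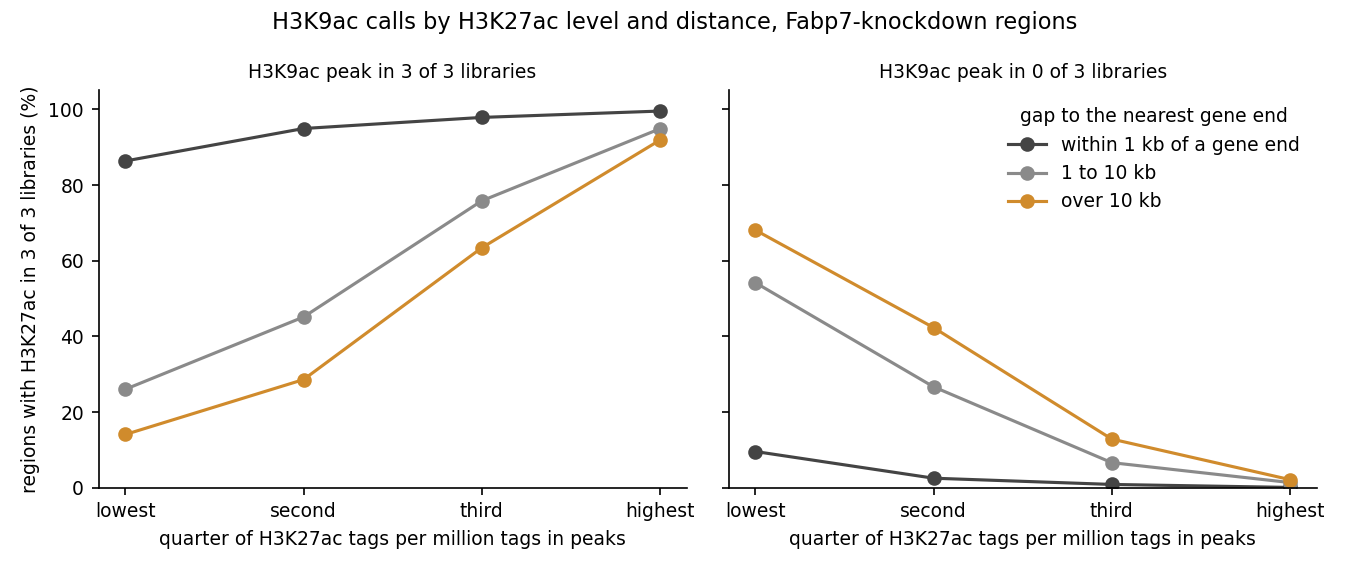
Percent of regions with H3K27ac in 3 of 3 knockdown libraries that had an H3K9ac peak in 3 of 3 (left) or 0 of 3 libraries (right), by 4 equal groups of scaled H3K27ac tags (x axis) and by the gap to the nearest gene end. In the lowest group the H3K9ac share is 86.4% near gene ends and 14.1% over 10 kb away, and in the highest 99.6% and 91.9%.

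The strongest regions with H3K27ac only at gene ends lay at genes of varied roles. First was a region of 14437 bases at Tm4sf4 (chr3:57417199-57431635), with 721, 708 and 1260 H3K27ac tags and no H3K9ac peak. It was picked by its tags, so its place above the class medians of 82, 129 and 191 is no separate result. Next by rank were the region at Rhoc and Mov10 (a small GTPase of cell migration and an RNA helicase; 340, 518 and 665 tags), Hsh2d (279, 396 and 649) and Cutc, a copper-binding protein (283, 301 and 511). Others of the first 8 were Sik2, a salt-inducible kinase, Sprr1b, and Parg, which removes poly(ADP-ribose). In Res_Ctrl cells these 7 regions had H3K27ac in 3 of 3 libraries, and H3K9ac was called in 3 of 3 at Mov10 and Rhoc, in 1 of 3 at Hsh2d, and in 0 of 3 at the other 5. In Res cells H3K9ac was called in 3 of 3 libraries at Tm4sf4 and in 0 of 3 at the others. H3K27ac was called there in 0 of 3 at Cutc and Parg, in 1 of 3 at Sik2 and in 3 of 3 at the rest.

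Over 10 kb from any gene end, the first H3K27ac-only region by rank lay 25035 bases from Adam9, a membrane metalloprotease (chr8:24984514-24992005; 493, 630 and 902 tags). Matn2, a matrix protein, had one of 347, 757 and 999 tags at 20475 bases (chr15:34404563-34415767), and regions near Magi3, a scaffold of cell junctions, and Car2, a carbonic anhydrase, had 444, 582 and 914 and 391, 620 and 898 tags. The nearest gene is named for position only.

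Regions with H3K9ac only were narrow, and the strongest lay over gene starts with many CG pairs. The first by rank was the region at Ccpg1 and Ccpg1os (chr9:72984545-72986804), with 118, 157 and 140 H3K9ac tags and no H3K27ac peak. Psrc1 had 119, 142 and 134 tags and P2ry1 99, 130 and 111. All 3 were picked by their tags and so stood above the class medians of 63, 86 and 68. They were below the medians of 252, 366 and 302 of regions with both marks. Further members were Stc2, a secreted glycoprotein, Abtb2, Mitf, the transcription factor of melanocytes and lysosomal genes, Bambi, a decoy receptor of TGF-beta signalling, and Jph1, a junctional membrane protein of muscle. In Res_Ctrl cells H3K27ac was present at Psrc1 in 3 of 3 libraries, at P2ry1 and Bambi in 2, at Stc2 and Abtb2 in 1, and at Ccpg1, Mitf and Jph1 in 0.

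The strongest regions of all were broad and carried both marks. Vmp1, a membrane protein of autophagy, had 5205, 7209 and 10392 H3K27ac tags and 5146, 7622 and 6258 H3K9ac tags in a region of 39082 bases (chr11:86573045-86612126). The next were the calcium-binding genes S100a2 to S100a6, Pmepa1, an inhibitor of TGF-beta signalling, Tnrc18, and the region shared by Hook2, Junb (an AP-1 subunit) and Prdx2 (a peroxidase). Frmd8, Dagla, a lipase that makes an endocannabinoid, and Lasp1, an actin-binding protein, closed the first 8. Relative to the typical region, S100a2 to S100a6, Dagla and Lasp1 had more H3K27ac (log2 H3K9ac over H3K27ac -0.64 ± 0.07, -0.78 ± 0.07 and -0.71 ± 0.08, SE; adjusted p at most 4.01e-05, edgeR; -0.27, -0.23 and -0.24 per called base), and their CPM did not overlap between marks. Vmp1 was also lower in H3K9ac (-0.47 ± 0.07), but not per called base (-0.09, adjusted p = 0.192). The calls at Pmepa1 (-0.25 ± 0.08) and Frmd8 (-0.18 ± 0.07) were lost without the second or the third H3K27ac library, and Frmd8 also without the first H3K9ac library. Both turned direction under other scalings, Pmepa1 to 0.04 with total tags and 0.09 per called base, and Frmd8 to 0.10 with total tags and, past the threshold, to 0.44 per called base (adjusted p = 9.51e-09).

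At regions with both marks, the balance between them was tested with edgeR's quasi-likelihood test on the tags of the 3 libraries of each mark, with TMM scaling and Benjamini-Hochberg adjustment at 0.05. The scaling sets the typical region near 0, so a ratio says where a region stands among the others and not which mark is more abundant, and antibodies differ in efficiency. Of 14524 regions, 5138 (35.4%) were relatively higher in H3K9ac and 5419 (37.3%) relatively higher in H3K27ac, with a median log2 ratio of 0.09. Scaled to total tags, which moved the median to 0.37, the counts were 8118 and 4708. Tags were summed over called peaks, so the wider H3K27ac calls at distal regions add to their ratio, and values per called base are given beside the ratios printed with an SE that they moved by over 1.5 times.

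The balance followed the distance to genes. Regions within 1 kb of a gene end had a median log2 ratio of 0.26, and 52.0% of 9063 were higher in H3K9ac against 12.9% higher in H3K27ac. At 1 to 10 kb the median was -0.88, at 10 to 50 kb -1.18 and over 50 kb -1.35, where 2.52% of 1387 regions were higher in H3K9ac and 88.6% higher in H3K27ac. Per called base the 4 medians were 0.24, -0.39, -0.53 and -0.61, and with total tags 0.54, -0.60, -0.90 and -1.06, so the order held with each scaling while the distances shrank per called base. The number of listed gene starts inside a region gave the same order: the medians were -0.94 with none, 0.26 with 1 and 0.36 with 2 or more.

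**Figure D3:**
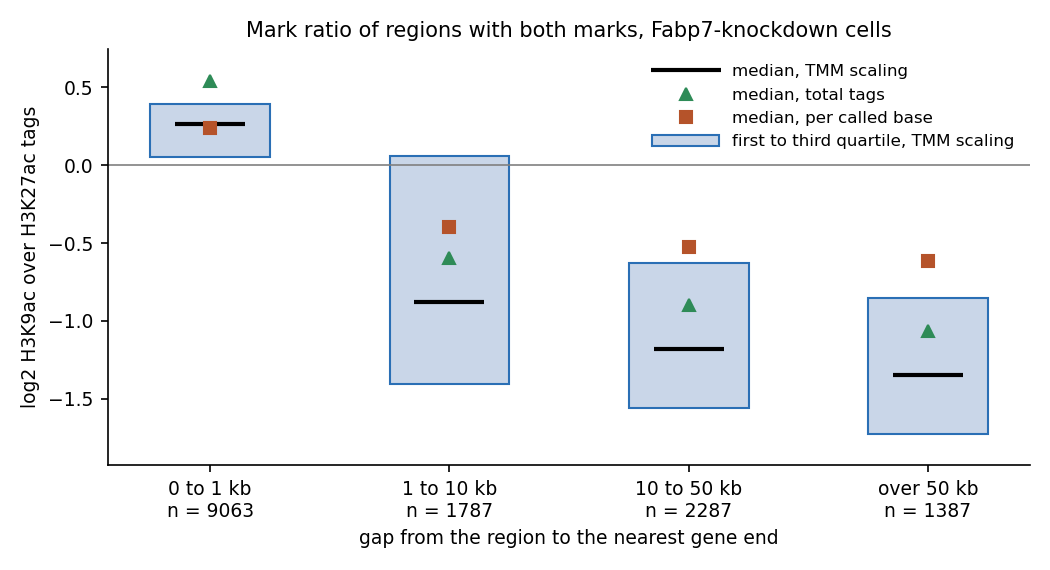
Log2 ratio of H3K9ac to H3K27ac tags of the 14524 regions with both marks, by the gap to the nearest gene end; boxes span the first to the third quartile and lines mark the median with TMM scaling, triangles the median with total tags and squares that per called base. The median falls from 0.26 at gene ends to -1.35 over 50 kb away, and from 0.24 to -0.61 per called base.

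Regions higher in H3K9ac lay mostly at gene ends, and those higher in H3K27ac were wider and more often distal. Median widths were 3026.5 bases for the 5138 regions higher in H3K9ac, 4631 for the 5419 higher in H3K27ac and 2760 for the 3967 that passed in neither direction. Gene ends lay within 1 kb of 91.8%, 21.5% and 80.2% of them in that order, and 3.09%, 57.2% and 10.5% were over 10 kb away. In cells that the ratio did not use, all 3 H3K9ac libraries had a peak at 97.0% of the regions higher in H3K9ac in Res_Ctrl, 98.0% in Res and 99.2% in Sen, and at 47.1%, 45.6% and 78.0% of those higher in H3K27ac. All 3 H3K27ac libraries had a peak at 92.2%, 93.0% and 90.2% of the regions higher in H3K9ac and at 95.6%, 82.7% and 82.4% of those higher in H3K27ac, so the order in Res_Ctrl was the reverse of that in Res and Sen.

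Counted by gene, with the most strongly marked region at its ends, 10391 of 21887 protein-coding genes (47.5%) carried both marks, 133 H3K27ac only and 43 H3K9ac only, and 10549 had no region. Of the 10391 genes, 5702 (54.9%) were higher in H3K9ac and 1210 (11.6%) higher in H3K27ac, with a median of 0.28, and the CPM of the 3 libraries of each mark did not overlap at 7668 (73.8%). These shares are the background for each gene group that follows.

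The largest shares of H3K9ac were found at Notch1, where scaled levels were 16.5, 12.2 and 12.1 CPM in H3K27ac and 30.1, 30.2 and 28.0 CPM in H3K9ac. All H3K9ac libraries were above all H3K27ac libraries, which the rule that named these regions required. The log2 ratio was 1.13 ± 0.15 (adjusted p = 0.000119, edgeR; 0.31 per called base). Ticrr, which helps to load replication factors, had 45.6, 41.2 and 36.6 CPM in H3K27ac and 79.3, 71.5 and 82.4 CPM in H3K9ac (0.93 ± 0.10, adjusted p = 3.03e-05; 0.29 per called base). The other 8 of the first 10 had ratios between 0.84 and 0.99, and between 0.24 and 0.64 per called base: Bcorl1, Nkrf, a repressor of NF-kB targets, Zfp704, Mecr, an enzyme of mitochondrial fatty acid synthesis, Scfd2, Slc30a1, a zinc exporter, Rfx2, a factor of cilia genes, and Vps11 of the lysosomal tethering complex. Of these 10 calls, those at Slc30a1 and Rfx2 were lost per called base (adjusted p = 0.135 and 0.085).

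The shares of H3K27ac reached further from 0. Lgr6, a receptor for R-spondins, had 89.6, 113.0 and 119.3 CPM in H3K27ac and 10.3, 13.9 and 18.5 CPM in H3K9ac. No library overlapped between marks, which the naming rule required here as well. H3K27ac was 7.51-fold higher relative to the typical region (log2 ratio -2.91 ± 0.18, adjusted p = 1.02e-06, edgeR; -0.73 per called base). Ly6a, a surface protein of progenitor cells, stood at -2.52 ± 0.24, Gorab, a Golgi protein, at -2.44 ± 0.18, Serpind1, a thrombin inhibitor, at -2.29 ± 0.14 and Krt79, a keratin, at -2.23 ± 0.19. The others were 4930432M17Rik, Olfr65, C77080, Slc4a9 and Pilrb1, between -2.59 and -2.26, and all 10 calls held per called base, with ratios from -1.11 to -0.60. In Res_Ctrl cells H3K9ac was called in 0 or 1 of 3 libraries at each of the 10, so the tests against Res_Ctrl did not include them. Leaving out the chromosome not used for starts, 3 of 9 of these regions held a listed start of their genes, and that of Lgr6 held none. Among the 10 regions with the largest shares of H3K9ac, 8 held one.

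Genes that most cells need were placed on the H3K9ac side. Of 44 tested genes of cytosolic ribosomal proteins 39 were higher in H3K9ac and 0 in H3K27ac, with a median log2 ratio of 0.38. For subunits of mitochondrial respiration the counts were 30 and 1 of 33 with a median of 0.44, and for the proteasome and the chaperonin 25 and 0 of 32 with a median of 0.37, against 54.9% and 11.6% of all genes and a median of 0.28. Ndufb5 of complex I had 58.8, 58.0 and 56.7 CPM in H3K27ac and 94.4, 88.4 and 101.3 CPM in H3K9ac (0.71 ± 0.08, adjusted p = 2.68e-05; 0.43 per called base). Cct5, a subunit of the chaperonin, had 87.7, 98.4 and 87.2 CPM in H3K27ac and 142.9, 133.0 and 151.9 CPM in H3K9ac (0.65 ± 0.08, adjusted p = 5.08e-05; 0.43 per called base). Both genes were without overlap between marks, and their regions also lay at an end of Mrpl47 and of Atpsckmt, in that order. The medians of all 3 groups stayed above the median of all genes under each scaling tried. Per called base they were 0.33, 0.34 and 0.33, against 0.25 for all genes. Rplp0 of the ribosomal stalk (0.68 ± 0.11) lost its call per called base (0.15, adjusted p = 0.131).

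Of 24 tested cell cycle genes 18 were higher in H3K9ac and 2 higher in H3K27ac, with a median of 0.37. Ccnb1, the mitotic cyclin B1, had 47.6, 42.8 and 40.6 CPM in H3K27ac and 72.7, 65.4 and 67.0 CPM in H3K9ac (0.65 ± 0.09, adjusted p = 0.000174). Per called base its ratio fell to 0.30. Mcm5 of the replicative helicase had a ratio of 0.57 ± 0.07. Of 28 tested genes of acetylation enzymes and readers 18 (64.3%) were higher in H3K9ac and 1 in H3K27ac, with a median of 0.33, which is near the 54.9% and 0.28 of all genes. Sirt1, an NAD-dependent deacetylase, had 36.8, 32.5 and 36.6 CPM in H3K27ac and 56.3, 57.3 and 66.3 CPM in H3K9ac (0.76 ± 0.10, adjusted p = 0.000125). Genes of the enzymes themselves were close to each other: Ep300 stood at 0.38 and Crebbp at 0.42, Kat2a at 0.46 and Kat2b at 0.30. Brd3, a bromodomain reader, was the exception at -1.38 ± 0.20 (adjusted p = 0.000191; -0.62 per called base).

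Secreted factors stood on the H3K27ac side. Of 13 tested genes of chemokines and secreted factors 8 were higher in H3K27ac and 1, Vegfa (0.26), in H3K9ac, and the median was -0.64, -0.36 with total tags and -0.10 per called base. Csf1, the growth factor of macrophages, had 236.1, 255.7 and 242.6 CPM in H3K27ac and 54.8, 60.5 and 62.4 CPM in H3K9ac. The levels did not overlap, and the log2 ratio was -2.04 ± 0.07 (adjusted p = 3.42e-07; -0.84 per called base). Csf2 and Csf3, growth factors of granulocytes and macrophages, stood at -1.60 ± 0.15 and -1.56 ± 0.12 (-0.73 and -0.37 per called base), Lgals9, a galectin, at -1.20, and Cxcl5, a chemokine for neutrophils, at -0.79. Cd274, which encodes the ligand of PD-1, was close to the typical region at -0.09 (adjusted p = 0.49).

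Epithelial and matrix genes were divided. Of 12 tested keratin and junction genes 7 were higher in H3K27ac and 0 in H3K9ac, with a median of -0.30, though per called base 4 were higher in H3K27ac, 3 in H3K9ac and the median was 0.003. Cdh1, the cadherin of epithelial junctions, had 958.2, 1099.8 and 1132.3 CPM in H3K27ac and 452.7, 432.8 and 393.6 CPM in H3K9ac over a region of 46390 bases (-1.32 ± 0.08, adjusted p = 1.14e-06; -0.54 per called base). Krt19 stood at -0.91 ± 0.08 and Krt80 at -0.99 ± 0.09 (-0.25 and -0.46 per called base), whereas the desmosomal gene Dsp (0.11, adjusted p = 0.17) did not pass. Of 17 mesenchymal and matrix genes 6 were higher in H3K27ac and 2 in H3K9ac, with a median of -0.10 that turned to 0.18 with total tags and 0.03 per called base. Snai1, a repressor of Cdh1, stood at -0.87 ± 0.11 (-0.56 per called base). Of 28 actin and adhesion genes 11 were higher in H3K27ac and 6 in H3K9ac with a median of -0.07, which turned to 0.21 with total tags and 0.14 per called base. Itga3, an integrin, stood at -0.90 ± 0.10 there (-0.23 per called base).

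**Figure D4:**
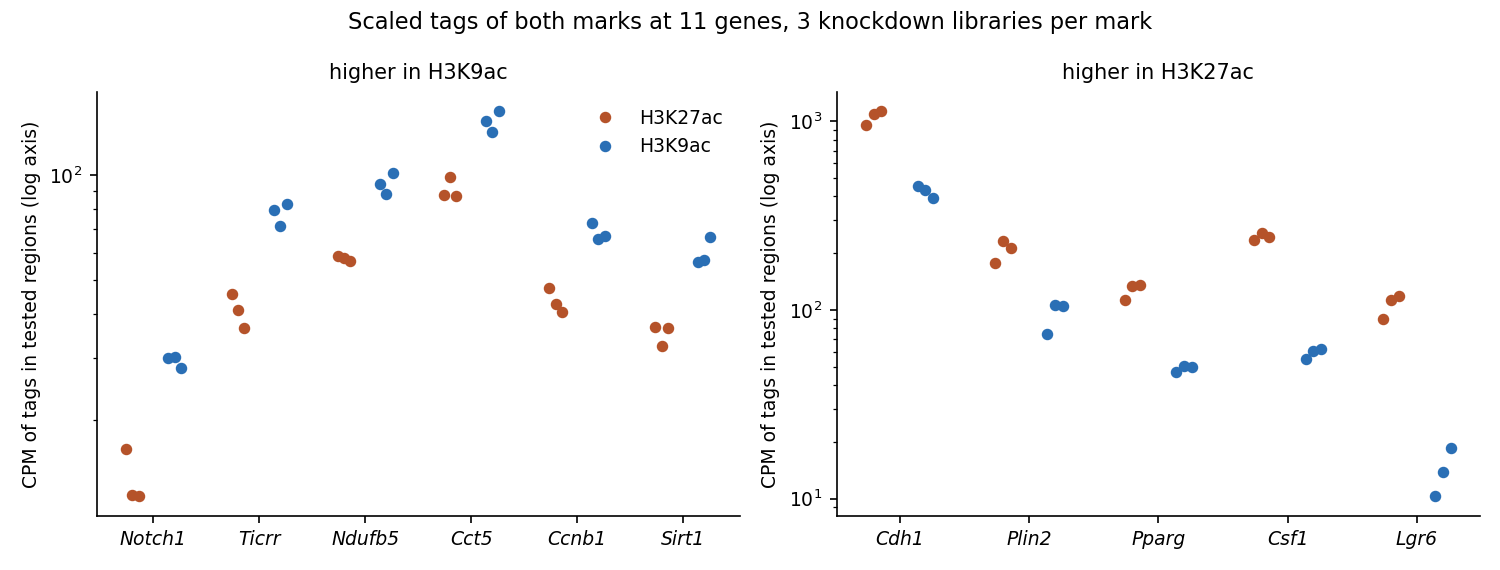
CPM of tags in tested regions (log axis) at 6 genes higher in H3K9ac and 5 higher in H3K27ac; each point is 1 of 3 Res_shFabp7 libraries of a mark. The marks do not overlap at any of the 11 genes, which the naming rule required at Notch1, Ticrr and Lgr6. The distance is largest at Lgr6 (89.6 to 119.3 CPM in H3K27ac, 10.3 to 18.5 CPM in H3K9ac).

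Fatty acid binding genes, the family of the knockdown target, carried little acetylation. Of 9 Fabp genes 7, Fabp7 among them, had no region within 1 kb of an end, against 48.2% of all 21887 protein-coding genes. The nearest region to Fabp7 (chr10:57784923-57788450) lay 5709 bases away, with 0, 74 and 61 H3K27ac tags and no H3K9ac, and the nearest with both marks 251541 bases away. Fabp5, an epidermal family member, had 104, 145 and 92 H3K9ac tags in 3 of 3 libraries and 0, 50 and 78 H3K27ac tags, so its region had both marks in part. H3K9ac at Fabp5 was present in 3 of 3 libraries of every other group and H3K27ac in 1 of 3 in Res_Ctrl, 3 of 3 in Res and 2 of 3 in Sen. Fabp2 had 82 H3K27ac tags in 1 library alone.

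Other genes of lipid handling with both marks were found on either side. Of 10 tested genes of fatty acid binding and uptake 5 were higher in H3K27ac and 2 in H3K9ac, with a median of -0.22 that turned to 0.07 with total tags and 0.23 per called base. Pparg, a nuclear receptor for fatty acids, had 112.5, 134.8 and 136.0 CPM in H3K27ac and 46.8, 50.6 and 49.6 CPM in H3K9ac, without overlap (-1.38 ± 0.09, adjusted p = 1.24e-06; -0.65 per called base). The H3K27ac calls at Acsl5, an acyl-CoA synthetase (-0.69), and Ppard (-0.66) turned to 0.04 and 0.33 per called base. Of 13 lipid droplet genes 5 were higher in H3K27ac and 3 in H3K9ac, with a median of 0.10. Plin2, a coat protein of lipid droplets, had 177.8, 231.0 and 214.4 CPM in H3K27ac and 75.0, 105.8 and 105.5 CPM in H3K9ac (-1.12 ± 0.14, adjusted p = 5.24e-05; -0.46 per called base).

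Ferroptosis, which the series title names, is an iron-dependent death by lipid peroxidation. Among suppressors, 6 of 22 tested genes (27.3%) were higher in H3K9ac and 4 (18.2%) in H3K27ac, with a median of 0.12. Mboat2, which remodels phospholipids, stood at 0.48 ± 0.10 (adjusted p = 0.00147; 0.32 per called base), while the call at Gsr, glutathione reductase (-0.40 ± 0.07), was lost per called base (-0.12, adjusted p = 0.149). Among drivers, 10 of 21 (47.6%) were higher in H3K9ac and 2 (9.52%) in H3K27ac, with a median of 0.27. The drivers were thus near the 54.9%, 11.6% and 0.28 of all genes. Ireb2, a regulator of iron uptake, had 57.4, 59.3 and 57.3 CPM in H3K27ac and 83.0, 78.7 and 90.0 CPM in H3K9ac (0.53 ± 0.08, adjusted p = 0.00024). Keap1, which targets Nrf2 for degradation, stood at 0.43 ± 0.09. Trp53, whose region also lay at an end of Wrap53, stood at 0.40 ± 0.07. Acsl4, which prepares polyunsaturated fatty acids for phospholipids, missed the threshold at 0.51 (adjusted p = 0.052).

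The remaining groups lay between these. Of 16 tested clock genes 3 were higher in each mark with a median of 0.08. Cry1 (0.53 ± 0.12, and 0.29 per called base), Per3 (0.43 ± 0.10) and Csnk1d (0.34) were higher in H3K9ac. The region of Per3 also lay at an end of Gm38529. Per1 (-0.50 ± 0.12), Per2 (-0.39) and Nr1d1 (-0.34) were higher in H3K27ac, of which Per1 was lost with total tags and per called base (-0.14). Of 22 genes of the integrated stress response 10 were higher in H3K9ac and 2 in H3K27ac, Nupr1, a stress-induced chromatin protein, among the latter at -1.47 ± 0.13 (adjusted p = 7.16e-06; -0.81 per called base). Hypoxia and glycolysis genes had 7 and 3 of 21 with Ldha, lactate dehydrogenase, at -0.96 ± 0.07 (adjusted p = 2.91e-06; -0.55 per called base). AP-1 and immediate early genes had 7 and 6 of 27, class I presentation and interferon genes 6 and 2 of 18, and lung and gut endoderm factors 5 and 4 of 17. The median of the endoderm factors was -0.01 and turned to 0.27 with total tags, and that of the AP-1 genes was 0.03 and turned to -0.01 with DESeq2 size factors.

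Markers of cell identity fitted the labelled tissue in part. Of 11 lung and epithelial markers 8 carried both marks, among them Foxa1, Foxa2, Cdh1, Krt8 and Sftpc, a surfactant protein, but Nkx2-1, the factor that defines lung epithelium, had no region at its ends, and Epcam had H3K9ac in 1 or 2 libraries only. Of 8 immune markers Cd68 and Cd14 carried both marks and 6, Ptprc among them, had no region. Of 9 fibroblast and endothelial markers Col1a1 alone carried both marks, and of 6 neural markers Nes and Mbp did. Of all 21887 protein-coding genes, 47.5% carried both marks and 48.2% had no region. A region counts for a marker if it lies within 1 kb of either end of the gene. It may therefore belong to a neighbouring gene, which was not tested. The part of other cell types in the results was not tested.

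Within promoters the marks also differed in position. Peak summits within 2 kb of the start of 14731 genes with 1 listed start lay downstream, inside the gene, for 80.5%, 78.4% and 79.6% of H3K27ac summits and 85.4%, 85.4% and 85.8% of H3K9ac summits. All H3K9ac libraries were above all H3K27ac libraries (79.5 ± 1.05% against 85.5 ± 0.187%, exact permutation p = 0.1, the smallest possible). The median summit was 220 ± 11.7 bases downstream in H3K27ac and 242 ± 4.16 in H3K9ac (exact permutation p = 0.1). The second group of summits, in the 500 bases before the start, held 14.0 ± 1.03% of H3K27ac and 10.4 ± 0.107% of H3K9ac summits.

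**Figure D5:**
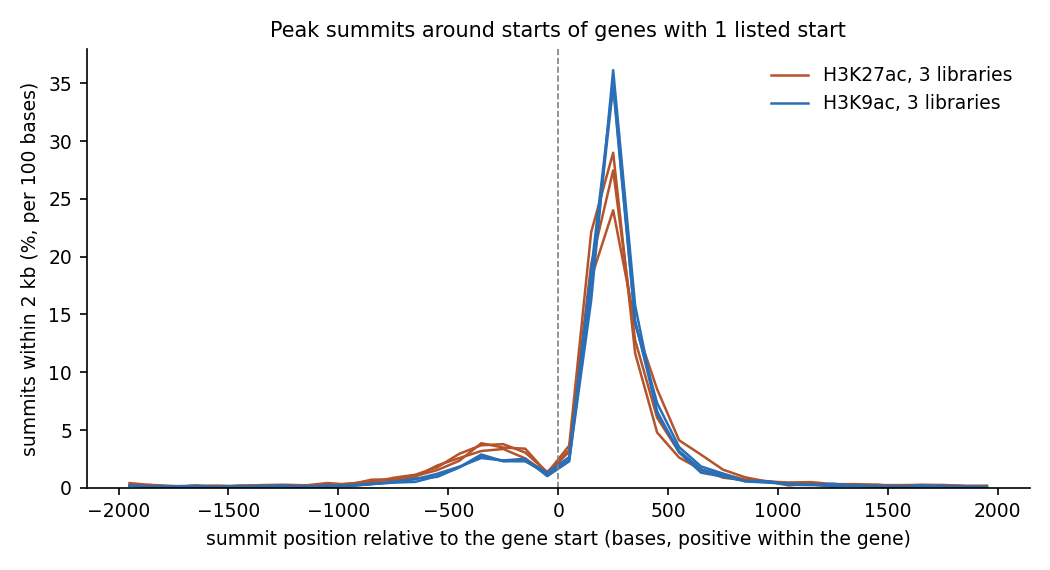
Percent of peak summits per 100 bases around the start of genes with 1 listed start (x axis in bases, positive inside the gene), 1 line per Res_shFabp7 library. Both marks peak downstream of the start with a dip at it, and the 3 H3K9ac libraries are higher downstream (85.4% to 85.8% of summits) than the 3 H3K27ac libraries (78.4% to 80.5%).

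Promoters of the single-mark classes had the contrast seen in the printed sequences, and those with both marks had a smaller one. Over the 300 bases from 250 before to 50 after the start, the observed number of CG pairs was compared with the number that the content of C and G gives. The median ratio was 0.57 over all 21263 promoters, 0.80 over 9970 promoters at regions with both marks, 0.75 over 42 at regions with H3K9ac only and 0.19 over 55 at regions with H3K27ac only. Within regions with both marks it was 0.85 over 5552 promoters higher in H3K9ac and 0.59 over 985 higher in H3K27ac. The printed C77080 (0.10) and Pilrb1 (0.05) were far below that 0.59 and are not typical of their class. Among genes with both marks, the median log2 ratio of H3K9ac to H3K27ac was -0.40 for the 220 promoters under 0.2 on this scale and 0.34 for the 1512 over 1. TATAAA, on either strand, was found in 12.6% of all promoters, 5.91% of those with both marks, 9.52% with H3K9ac only and 23.6% with H3K27ac only. TGACTCA or TGAGTCA, which are each other's reverse complement and the site of AP-1, was found in 4.66% of all promoters, 3.35% with both marks, 2.38% with H3K9ac only and 27.3% with H3K27ac only. GGGCGG, on either strand, was found in 46.2%, 69.2%, 64.3% and 10.9% in the same order. Few CG pairs and TATAAA were not particular to H3K27ac only. The 10596 promoters without a region had a median ratio of 0.25, TATAAA in 19.1%, GGGCGG in 24.2% and the AP-1 site in 5.62%. The 121 at regions with H3K27ac in 1 or 2 libraries only had 0.25, 17.4%, 27.3% and 21.5% in that order. The single-mark shares rest on 42 and 55 promoters, and a match of letters is no evidence of binding.

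Shared regions recurred in the other groups more than single-mark ones did. Of the 14524 regions with both marks, H3K27ac was present in 3 of 3 libraries at 90.8% in Res_Ctrl, 86.7% in Res and 83.6% in Sen, and H3K9ac at 74.9%, 76.2% and 90.5%. Both marks were present in all 18 libraries of the other groups at 8936 (61.5%). Of the 3949 regions with H3K27ac only, H3K27ac was present in 3 of 3 libraries at 36.6% in Res_Ctrl, 31.2% in Res and 16.1% in Sen, and H3K9ac in 0 of 3 at 96.1%, 95.3% and 88.5%. The same class held in all 3 other groups for 100 of them (2.53%) and for 0 of the 59 with H3K9ac only.

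Class sizes in the other groups differed with their peak lists. The same rule gave 10490 regions with both marks, 3615 with H3K27ac only and 28 with H3K9ac only in Res_Ctrl, 10927, 4707 and 25 in Res, and 12361, 898 and 394 in Sen. With 11771 peaks from each of the 24 libraries, an alternative chosen after the data were seen, the knockdown cells had 8023, 1514 and 1542 and Res_Ctrl 7254, 1628 and 1550. The knockdown libraries also had more tags in peaks than Res_Ctrl (7.60 ± 2.74 M against 4.33 ± 0.546 M in H3K27ac and 5.96 ± 1.18 M against 3.46 ± 1.06 M in H3K9ac, exact permutation p = 0.1 for each), whose part in the class sizes was not tested.

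The balance between the marks at shared regions was not found to differ between knockdown and control cells. The interaction of mark and group was tested with edgeR at 10351 regions called in all 12 libraries of Res_shFabp7 and Res_Ctrl, and 0 regions (0%) passed. An unadjusted p under 0.05 was reached by 516 regions (4.99%), and DESeq2 called 13, of which 9 had a higher and 4 a lower H3K9ac share in the knockdown. The lowest adjusted p (0.0531) belonged to a region at Hip1r, a protein linking clathrin and actin (chr5:123973190-123982448), with a change of 1.28 ± 0.18. Without the third Res_Ctrl H3K9ac library 27 regions passed, all with a higher share, and without the first Res_Ctrl H3K27ac library 9 did. Between the 5th and the 95th percentile, changes ran from -0.29 to 0.32 with a median SE of 0.16, and 99.9% of regions changed by less than 1.

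None of the genes named for their ratio between the marks passed in this comparison, but many could not be tested. Among those with the largest shares of H3K9ac, only Notch1, Ticrr and Mecr were called in all 12 libraries and tested. Of those with the largest shares of H3K27ac none was. The changes against Res_Ctrl were 0.03 ± 0.18 at Pparg, 0.28 ± 0.21 at Plin2, 0.20 ± 0.11 at Ndufb5, 0.16 ± 0.11 at Cct5 and -0.18 ± 0.45 at Cdh1, with an adjusted p of 0.996 for each. Among the genes that the naming rule gives, the largest changes were 0.71 ± 0.22 at Notch1 (adjusted p = 0.745) and 0.55 ± 0.27 at Csf3 (adjusted p = 0.996). The median change of each of the 19 gene groups lay between -0.06 and 0.08, and that of all 9181 genes tested was -0.003.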

How the data were processed

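H3K27ac and H3K9ac were measured by ChIP-seq in 4 groups of mouse lung adenocarcinoma cells, with 3 libraries per mark and group. The tools named are Bowtie 1.1.2, a read aligner, and MACS 1.4.2, a peak caller, and the build is mm10, per the submitters' processing notes. Whether the 4 input libraries served as controls of the caller, and how duplicate reads were treated, is not given in the sources used here. The deposited lists give, per peak and library, a count of tags (NumTags), a score that grows as the caller's p falls (at least 50 in each list, which stands for a p of 1e-05) and a fold enrichment ratio, all made by the authors' caller.

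Peaks of a group's 6 lists were merged at an overlap of 1 base or more, and tags were summed over each library's peaks inside a region. A library without a peak has no tag value there. Tags in peaks, given in the results, grow with the length called and are not sequencing depth. Gene ends were the outer ends of 21887 protein-coding genes of RefSeq GRCm38.p6, within 1 kb, and starts came from the promoter table (17492 genes, 21263 starts), without chromosome 18, which was not used for starts, summits or sequences. The mark ratio was fitted with edgeR 4.0.16 in R 4.3.3 (quasi-likelihood test, TMM scaling, Benjamini-Hochberg adjustment at 0.05) on regions called in all 6 libraries, and the interaction with Res_Ctrl on regions called in all 12. CPM are tags per 1000000 TMM-scaled tags in tested regions. The fit was also run on simulated data in which few regions changed, so that run does not test the scaling. DESeq2 1.42.0, other scalings, filters, overlaps and left-out libraries were alternatives. Other steps used Python 3.11.15, pandas 2.3.3, numpy 2.4.6, scipy 1.17.1 and matplotlib 3.10.9.

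Genes were named as all Fabp genes; the 8 regions of each class at gene ends with the best mean rank of tags within libraries, and the 4 best over 10 kb away for H3K27ac only; the 10 called regions at gene ends with the largest ratio each way and no overlap between marks; and up to 3 members with the largest called ratio of each of 19 gene lists and 4 marker lists. Other genes of a list are named as examples chosen after their values were seen. Of the regions this rule names, 2 are not reported here. The members and lists were chosen with earlier results of these data known. Antibody efficiency differs between marks, so a ratio is relative to the other regions, and p-values measure the spread between the 3 libraries of each mark.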

Additional observations from a re-analysis of the deposited data

How the results depend on the processing

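With the same number of peaks from each library, 1032 regions had H3K27ac only and 1141 H3K9ac only, the difference in the share at gene ends was 6.58 percentage points and that in median width 627 bases. With 2 or 3 of 3 libraries as the rule, 7997 regions had H3K27ac only and 145 H3K9ac only. Regions higher in H3K9ac numbered 8118 with total tags, 3755 with DESeq2 and 3009 with a caller p of 1e-10 or lower. Against Res_Ctrl, DESeq2 called 9 regions higher and 4 lower. Leaving out 1 library at a time gave 14582 to 15322 regions with both marks, 4043 to 7726 with H3K27ac only, 66 to 123 with H3K9ac only, 3604 to 5602 higher in H3K9ac and 5227 to 5936 higher in H3K27ac. Against Res_Ctrl it gave 0 to 27 regions higher and 0 to 4 lower, and for the differences 15.2 to 18.4 percentage points and 10.3 to 112 bases. The cause of these shifts was not tested beyond the fewer peaks or libraries each setting uses.

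The replicate numbers did not pair the marks, since the correlations of same-numbered knockdown libraries were 0.08, 0.20 and -0.03. With the replicate block, 5017 regions were higher in H3K9ac and 5395 in H3K27ac, 1 region was higher against Res_Ctrl, and among named regions the call at Frmd8 alone was lost (-0.17, adjusted p = 0.0649 by edgeR).

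Among 89 named regions and 1229 alternative values, 1178 kept the direction and the side of the threshold, 34 lost the call, 8 gained one and 9 reversed. With total tags Pmepa1 turned to 0.037, Hook2, Junb and Prdx2 to 0.13 and Frmd8 to 0.10. Per called base Pmepa1 turned to 0.090, Frmd8 to 0.44, Acsl5 to 0.037, Ppard to 0.33, Dusp5 to 0.55 and Ifngr2 to 0.15. A region under the caller's threshold has no value in the lists, and how far depth limits the classes was not tested.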

Other observations

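Some genes had several H3K27ac-only regions nearby. Counted within 50 kb of a gene, Kcnab1, a subunit of potassium channels, had 8 such regions among 18 regions of any class, Rptor, a subunit of mTORC1, 7 of 27 and Tbc1d1, a regulator of glucose transport, 7 of 15. These genes were chosen by their counts, long genes have more regions in reach, and no test was made.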
